A study of Mus musculus with 6 samples.

Results

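The genes Lat, Lat2, Grap2, Lcp2, Clnk, Skap1, Plcg1, Plcg2, Vav1 and Vav3 encode receptor adaptors, both gamma-class phospholipases C and a pair of Vav exchange factors. They were taken by symbol, and all 10 were found among the 55450 genes of the deposited table. The samples are lymphocytes sorted from the mammary gland in late pregnancy (E18.5 mice), each measured by bulk RNA sequencing. DN (double negative) NK1.1+ lymphocytes gave 3 libraries, and CD8 beta+ T cells sorted from that tissue gave 3. NK1.1 is found on the surface of natural killer (NK) cells and of a share of T cells. The labels give no strain, age, genotype or treatment, name no marker pair that the DN cells lack, and leave unsaid if replicates are separate animals. Tests therefore measure the spread between these libraries, which may be technical.

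Antigen receptors of T cells and activating receptors of NK cells have no enzyme activity of their own. Kinases of the Src and Syk families phosphorylate their signalling chains and then membrane scaffolds such as LAT, on which cytosolic adaptors of the SLP-76 family assemble phospholipase C gamma and Vav. Phospholipase C gamma makes the second messengers that release calcium and activate Ras and protein kinase C, and Vav loads small GTPases that drive actin assembly. LAT and phospholipase C gamma 1 are known as the main forms in T cells, whereas LAT2 and phospholipase C gamma 2 are known from B cells, mast cells and NK cells.

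The genes were chosen with this comparison known. Their values, and their marks from the fit over all genes, are therefore given as a description and not as a test. Levels are CPM, counts relative to library sizes scaled by the trimmed mean of M values (TMM), and fold changes with their standard errors (SE) come from edgeR's quasi-likelihood fit. Libraries held 7961360 to 14367299 counts, and all 10 genes passed the filter on low counts. The sort gene Cd8b1 was at 2.57 ± 1.58 CPM in DN NK1.1+ and 949 ± 57.8 CPM in CD8 beta+ libraries (SD, n = 3 each). Klrb1c, which encodes NK1.1, was at 639 ± 20.8 CPM in DN NK1.1+ and 37.1 ± 5.68 CPM in CD8 beta+ libraries. Summed markers of CD8 T cells ran from 1195 to 1270.2 CPM in DN NK1.1+ and from 4038 to 4312 CPM in CD8 beta+ libraries. Besides Cd8a and Cd8b1 this list holds Cd3d, Cd3e, Trac, Trbc2, Cd5 and Cd6, which are not particular to CD8 T cells. In DN NK1.1+ libraries the largest parts were Cd3e at 522 CPM and Trac at 241 CPM on average, and Cd8a was at 162 CPM. Summed markers of NK cells and group 1 innate lymphoid cells ran from 4174 to 4619 CPM in DN NK1.1+ libraries. In CD8 beta+ libraries they ran from 542 to 662 CPM. Gzma, the highest of these markers, averaged 1650 CPM in DN NK1.1+ and 242 CPM in CD8 beta+ libraries. Eomes averaged 190 CPM in DN NK1.1+ and 173 CPM in CD8 beta+ libraries and did not pass as different. The titles call the DN NK1.1+ cells T cells: Cd3e, for a chain of the T cell receptor complex, had 523, 514 and 529 CPM in DN NK1.1+ and 775, 743 and 777 CPM in CD8 beta+ libraries. Ncr1, for the NK receptor NKp46, had 252, 293 and 275 CPM in DN NK1.1+ and 0.650, 0.289 and 0.515 CPM in CD8 beta+ libraries. In bulk samples, fewer cells of a type and less RNA per cell cannot be told apart.

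Every one of the 4 pairs of related genes was tilted towards its second member in DN NK1.1+ libraries. The pairs are Lat and Lat2, Plcg1 and Plcg2, Lcp2 and Clnk, and Vav1 and Vav3. The way it happened differed. Lat and Plcg1 were lower while Lat2 and Plcg2 were higher, so that the more abundant gene of the pair changed. Clnk and Vav3 were higher while Lcp2 was slightly lower (1.34-fold) and Vav1 nearly even. Lcp2 and Vav1 stayed the more abundant genes of their pairs.

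Sequence just before the start of 4 of these genes is shown because they mark opposite sides of the shift: Plcg2 and Clnk were higher and Lat and Plcg1 lower in DN NK1.1+ libraries. The sequences are RefSeq promoters of build GRCm38.p6, cut where the gene begins in GENCODE M21. They lie at chr8:117498025-117498274 (plus strand, Plcg2), chr5:38876813-38876943 (minus strand, Clnk), chr7:126369571-126369818 (minus strand, Lat) and chr2:160731060-160731299 (plus strand, Plcg1). Capitals mark a match on either strand to any of 8 motifs.
Plcg2: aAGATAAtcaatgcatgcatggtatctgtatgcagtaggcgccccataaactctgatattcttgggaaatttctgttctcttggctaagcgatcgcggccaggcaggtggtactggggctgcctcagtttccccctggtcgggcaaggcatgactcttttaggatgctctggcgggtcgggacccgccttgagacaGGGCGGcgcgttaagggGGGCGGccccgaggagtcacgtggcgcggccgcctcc
Clnk: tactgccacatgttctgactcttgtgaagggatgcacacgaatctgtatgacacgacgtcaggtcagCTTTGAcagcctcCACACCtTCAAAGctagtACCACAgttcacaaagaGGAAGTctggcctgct
Lat: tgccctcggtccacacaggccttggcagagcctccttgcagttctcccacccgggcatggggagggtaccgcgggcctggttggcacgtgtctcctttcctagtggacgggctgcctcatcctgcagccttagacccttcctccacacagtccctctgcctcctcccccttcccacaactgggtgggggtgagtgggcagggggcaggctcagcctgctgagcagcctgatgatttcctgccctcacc
Plcg1: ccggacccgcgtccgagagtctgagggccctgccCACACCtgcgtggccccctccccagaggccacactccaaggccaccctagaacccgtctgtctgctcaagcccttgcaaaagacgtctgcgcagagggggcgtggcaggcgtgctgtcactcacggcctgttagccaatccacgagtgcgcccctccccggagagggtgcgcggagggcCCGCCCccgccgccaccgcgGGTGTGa

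The motifs searched were those known for ETS factors with the letters GGAAGT, for RUNX factors with TGTGGT, for T-box factors with GGTGTG and for TCF/LEF factors with CTTTGA. The rest were those for GATA factors with AGATAA, for the GC box with GGGCGG, for the TATA box with TATAAA and for AP-1 with TGANTCA. The window was the 250 bases before each RefSeq start. The Clnk window held 1 ETS, 1 RUNX, 1 T-box and 2 TCF/LEF matches, which did not overlap each other. Such letters occurred in 19.7%, 14.05%, 16.3% and 13.8% of all 32851 promoter windows. The Plcg2 window held 1 GATA and 2 GC box matches, against shares of 9.99% and 32.7% of all windows. Plcg1 had 2 T-box matches and 1 GC box match, and the Lat window had no match to any of the 8. Members not shown were searched too. Vav1, nearly even between the groups, held 1 ETS, 1 T-box and 1 GC box match. Grap2 held 1 GC box match, Lcp2 1 TCF/LEF and 2 GATA matches, and the first Vav3 entry 1 ETS and 6 GC box matches. Lat2 and Skap1 had no promoter entry. For Plcg1 and Plcg2 the bases just after the RefSeq start did not lie in full within a GENCODE transcript of the gene. The Plcg windows held many CpG pairs, 17 in Plcg2 and 21 in Plcg1, whereas Clnk and Lat had 6 each, the median of all windows. A match is a description of letters and not a bound site.

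Lat and Lat2 encode membrane scaffolds that carry tyrosines for SH2 adaptors. LAT is phosphorylated by ZAP-70 below the T cell receptor and holds a docking tyrosine for phospholipase C gamma 1. LAT2, also called NTAL or LAB, binds GRB2 but is known to lack that docking site. Lat, on chromosome 7 from 126363824 to 126369570 (mm10, minus strand), had 33.8, 38.5 and 35.7 CPM in DN NK1.1+ libraries, against 176, 171 and 162 CPM in CD8 beta+ libraries. All DN NK1.1+ libraries were low, and the groups lay far apart (log2 fold change −2.24, SE 0.106), which is 4.72-fold lower. Lat2, on chromosome 5 from 134600022 to 134615025 (minus strand), had 52.7, 52.1 and 57.5 CPM in DN NK1.1+ libraries, against 4.16, 5.71 and 5.25 CPM in CD8 beta+ libraries. It was the member with the largest fold change, 10.6-fold higher in DN NK1.1+ cells (log2 fold change 3.41, SE 0.185), again without overlap. Of its 2621 merged exon bases, 952 lie antisense to exons of Rfc2, and the sources used here do not state that counting used strand. Rfc2 itself overlapped between the groups, at 34.8, 41.2 and 44.4 CPM in DN NK1.1+ and 38.6, 28.5 and 32.5 CPM in CD8 beta+ libraries.

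**Figure D1:**
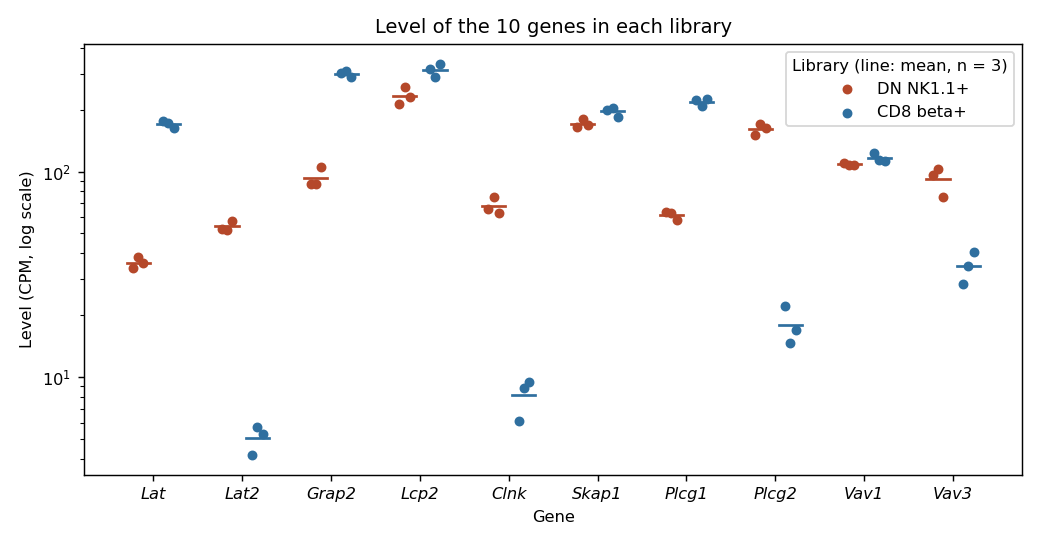
Level in CPM (log scale) of the 10 genes in each library; points are libraries, lines are means (n = 3), with DN NK1.1+ libraries left of CD8 beta+ libraries for each gene. Lat, Grap2 and Plcg1 sit lower, and Lat2, Clnk, Plcg2 and Vav3 higher, in DN NK1.1+ libraries, while Skap1 and Vav1 lie close together in the 2 groups.

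The cytosolic adaptors split. GRAP2, also called Gads, bridges phosphorylated LAT to SLP-76. Grap2, on chromosome 15 from 80572594 to 80652854 (plus strand), had 87.3, 86.7 and 105 CPM in DN NK1.1+ libraries, against 301, 310.0 and 288 CPM in CD8 beta+ libraries. It was thus 3.22-fold lower (log2 fold change −1.69, SE 0.102), between Lat and Lcp2. LCP2 is SLP-76, the adaptor that holds Vav, NCK and Tec family kinases at LAT. Lcp2, on chromosome 11 from 34046920 to 34092295 (plus strand), had 213, 257 and 231 CPM in DN NK1.1+ libraries, against 316, 289 and 335 CPM in CD8 beta+ libraries. The groups did not overlap, but the gap between the nearest libraries was small and the difference only 1.34-fold (log2 fold change −0.42, SE 0.100).

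CLNK, also called MIST, is a relative of SLP-76 known from mast cells and cytokine-stimulated haematopoietic cells. Clnk, on chromosome 5 from 38706462 to 38876812 (minus strand), had 65.6, 75.5 and 62.5 CPM in DN NK1.1+ libraries, against 6.11, 8.81 and 9.47 CPM in CD8 beta+ libraries. It was 8.26-fold higher in DN NK1.1+ cells (log2 fold change 3.05, SE 0.183), with CD8 beta+ replicate 1 the lowest library. SKAP1 couples the adaptor ADAP, the product of Fyb, to integrin activation in T cells. Skap1, on chromosome 11 from 96464593 to 96759130 (plus strand), had 165, 180.3 and 168 CPM in DN NK1.1+ libraries, against 199.6, 204 and 184 CPM in CD8 beta+ libraries. The groups lay close together without overlap, with a log2 fold change of −0.20 (SE 0.092).

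Plcg1 and Plcg2 encode the enzymes that cut a membrane phosphoinositide into diacylglycerol and inositol trisphosphate. Plcg1, on chromosome 2 from 160731300 to 160775760 (plus strand), had 63.5, 62.6 and 58.3 CPM in DN NK1.1+ libraries, against 222, 209 and 226 CPM in CD8 beta+ libraries. This made it 3.56-fold lower (log2 fold change −1.83, SE 0.097). Of its 7857 merged exon bases, 627 lie antisense to Zhx3 or Gm27206. Plcg2, on chromosome 8 from 117498291 to 117635142 (plus strand), had 151, 170.4 and 164 CPM in DN NK1.1+ libraries, against 22.1, 14.7 and 16.9 CPM in CD8 beta+ libraries. It was 9.14-fold higher (log2 fold change 3.19, SE 0.145), and CD8 beta+ replicate 1 was its highest library in that group.

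VAV1 and VAV3 are exchange factors for small GTPases; VAV1 is restricted to blood cells and VAV3 is more widely expressed. Vav1, on chromosome 17 from 57279100 to 57328031 (plus strand), had 109.7, 108 and 107 CPM in DN NK1.1+ libraries, against 123, 113 and 113 CPM in CD8 beta+ libraries. It was the most even member, with a log2 fold change of −0.10 (SE 0.096). Vav3, on chromosome 3 from 109340653 to 109685698 (plus strand), had 96.4, 103 and 75.5 CPM in DN NK1.1+ libraries, against 28.5, 34.5 and 40.8 CPM in CD8 beta+ libraries. The 2.64-fold higher level (log2 fold change 1.40, SE 0.154) came with the widest relative spread among DN NK1.1+ libraries, since replicate 3 was the lowest.

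The members also went through the edgeR fit over all genes. At its threshold (adjusted p of 0.05), 4 members were marked higher, 4 lower, and Skap1 and Vav1 neither. Over all 13171 genes tested, 7.84% passed as higher, 5.99% as lower and 13.8% in either direction. The groups were apart in 10 of 10 members and in 30.6% of all genes tested. Since the genes were chosen on this contrast, these marks and shares are no test of the members, and nothing is read from them. The median log2 fold change was −0.15 over the members and −0.0033 over all genes tested. Without CD8 beta+ replicate 1 the counts over all genes were 681 higher and 499 lower, against 1033 and 789 with every library.

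Within each library the ratio of a pair needs no scaling between libraries. Ratios were taken per kilobase of merged exons, with 0.5 added to each count. The Lat2 to Lat ratio was 1.64, 1.43 and 1.70 in DN NK1.1+ libraries, against 0.0253, 0.0354 and 0.0345 in CD8 beta+ libraries. Lat2 was therefore the more abundant of the pair in each DN NK1.1+ library and a few percent of it in each CD8 beta+ library. The shift between group means was 5.66 on the log2 scale (SE 0.173), or 50.5-fold.

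The Plcg2 to Plcg1 ratio crossed 1 as well. It was 4.35, 4.97 and 5.14 in DN NK1.1+ libraries, against 0.182, 0.129 and 0.137 in CD8 beta+ libraries, a shift of 5.03 on the log2 scale (SE 0.171) or 32.6-fold. Clnk and Lcp2 shifted by 3.50 (SE 0.208), or 11.3-fold, without crossing. Their ratio was 0.798, 0.763 and 0.703 in DN NK1.1+ libraries, against 0.0507, 0.0795 and 0.0737 in CD8 beta+ libraries. Vav3 and Vav1 shifted least, by 1.51 (SE 0.226) or 2.84-fold, with ratios of 0.539, 0.584 and 0.433 in DN NK1.1+ libraries, against 0.143, 0.187 and 0.222 in CD8 beta+ libraries. With the longest transcript as length in place of merged exons, the mean Lat2 to Lat ratio was 1.80 in DN NK1.1+ and 0.0355 in CD8 beta+ libraries, and that of Plcg2 to Plcg1 was 3.13 in DN NK1.1+ and 0.0959 in CD8 beta+ libraries.

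**Figure D2:**
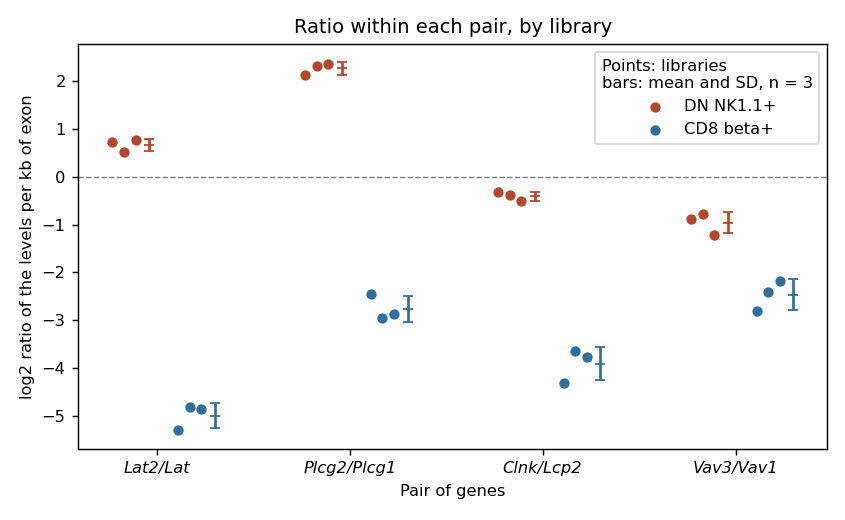
Ratio of the levels per kb of merged exons (log2) within each of 4 pairs; points are libraries, bars are mean and SD (n = 3), DN NK1.1+ left of CD8 beta+, and the dashed line marks equal levels. Lat2/Lat and Plcg2/Plcg1 lie above the line in DN NK1.1+ libraries and below it in CD8 beta+ libraries, and the other 2 pairs stay below it in both groups.

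The sums of the pairs differed much less than their makeup. Lat and Lat2 together were at 33.7 ± 1.28 CPM per kb in DN NK1.1+ and 63.3 ± 2.39 CPM per kb in CD8 beta+ libraries (SD, n = 3 each). The higher Lat2 thus did not make up for the lower Lat. Plcg1 and Plcg2 together were at 45.5 ± 2.16 CPM per kb in DN NK1.1+ and 32.03 ± 1.80 CPM per kb in CD8 beta+ libraries, but this gap rests on the length used. Per kb of the longest transcript their sum was 49.7 ± 2.13 in DN NK1.1+ and 47.04 ± 2.36 in CD8 beta+ libraries, and in CPM without length it was 223 ± 9.12 in DN NK1.1+ and 237 ± 11.5 in CD8 beta+ libraries. The groups overlapped on both of these scales, which were added after the data were seen. For Lcp2 and Clnk the sums were 91.9 ± 8.41 CPM per kb in DN NK1.1+ and 75.0 ± 5.45 CPM per kb in CD8 beta+ libraries. They overlapped per kb of the longest transcript, at 104 ± 9.51 in DN NK1.1+ and 90.8 ± 6.61 in CD8 beta+ libraries, and in CPM, at 301 ± 27.6 in DN NK1.1+ and 321 ± 23.7 in CD8 beta+ libraries. For Vav1 and Vav3 they were 44.6 ± 2.63 CPM per kb in DN NK1.1+ and 37.3 ± 0.759 CPM per kb in CD8 beta+ libraries. The lower sum of Lat and Lat2 and the higher sum of Vav1 and Vav3 held without overlap on all 3 scales.

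As shares of the pair's sum, Plcg2 held 81.3% to 83.7% in DN NK1.1+ and 11.4% to 15.4% in CD8 beta+ libraries. Lat2 held 58.8% to 62.9% in DN NK1.1+ and 2.47% to 3.42% in CD8 beta+ libraries. Clnk held 41.3% to 44.4% in DN NK1.1+ and 4.82% to 7.37% in CD8 beta+ libraries, and Vav3 30.2% to 36.9% in DN NK1.1+ and 12.5% to 18.2% in CD8 beta+ libraries. No pair overlapped between the groups.

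**Figure D3:**
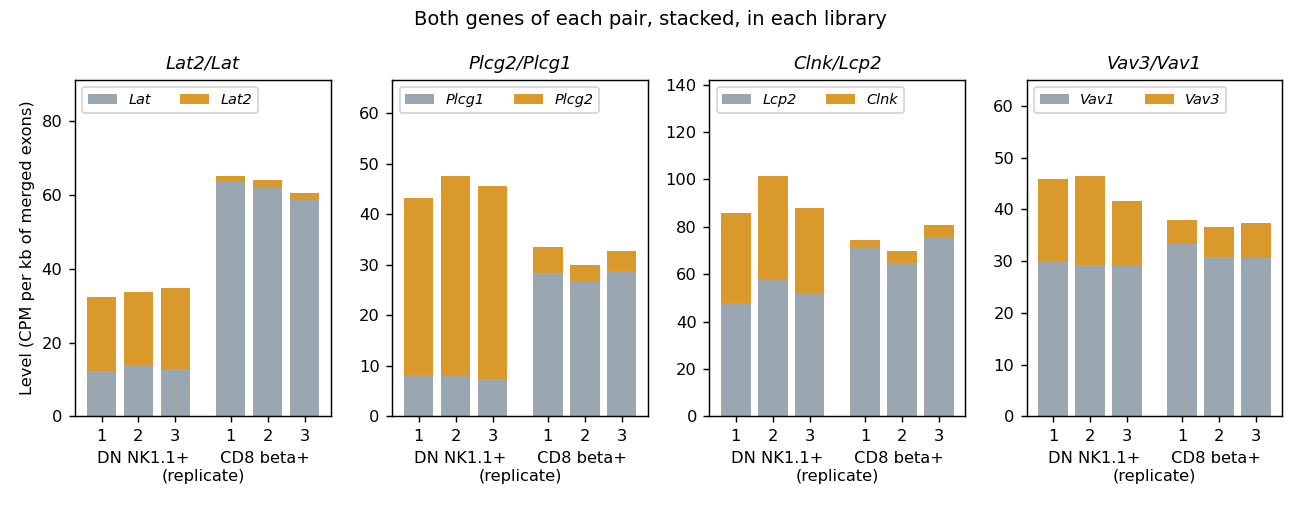
Level in CPM per kb of merged exons of both genes of each pair, stacked, for the 3 DN NK1.1+ libraries (left) and the 3 CD8 beta+ libraries (right) of each panel. The coloured part (Lat2, Plcg2, Clnk or Vav3) is larger in each DN NK1.1+ library, while the height of the bar is lower there for Lat2/Lat (33.7 against 63.3 on average) and higher for the other pairs on this scale; for Plcg2/Plcg1 and Clnk/Lcp2 the groups overlap per kb of the longest transcript, and in CPM their means are lower in DN NK1.1+ libraries.

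Partners that act together on LAT did not change equally. These further ratios were chosen after the values were seen. Lcp2 per Lat, on the same scale per length, was 3.91, 4.13 and 4.0 in DN NK1.1+ libraries, against 1.11, 1.05 and 1.28 in CD8 beta+ libraries. Grap2 per Lat differed less, at 1.14, 0.997 and 1.30 in DN NK1.1+ libraries, against 0.756, 0.802 and 0.787 in CD8 beta+ libraries. Plcg1 per Lat was 0.662, 0.572 and 0.574 in DN NK1.1+ libraries, against 0.445, 0.430 and 0.490 in CD8 beta+ libraries. Lat, Grap2 and Plcg1 were 3.22-fold to 4.72-fold lower, and Lcp2 only 1.34-fold. Plcg2 per Lat2 averaged 1.82 in DN NK1.1+ and 2.13 in CD8 beta+ libraries, and CD8 beta+ replicate 1 stood apart at 3.20.

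Ordered by level per kb of merged exons, DN NK1.1+ libraries ran from Lcp2 at 52.4 ± 4.91 CPM per kb through Clnk, Plcg2, Vav1, Skap1, Lat2, Vav3, Grap2 and Lat to Plcg1 at 7.82 ± 0.358 CPM per kb. Neighbours whose libraries overlapped were Clnk and Plcg2 (39.5 and 37.6 CPM per kb), Vav3 and Grap2, and Grap2 and Lat. CD8 beta+ libraries ran from Lcp2 at 70.3 ± 5.26 CPM per kb through Lat, Grap2, Vav1, Plcg1, Skap1, Vav3, Clnk and Plcg2 to Lat2 at 1.92 ± 0.303 CPM per kb. Here Plcg1 and Skap1, Vav3 and Clnk, and Clnk and Plcg2 overlapped. Some places depend on the length used. That of Skap1 moved most, because its merged exons span 7462 bases and its longest transcript 2095. With the longest transcript, Skap1 came before Lcp2 in both groups, at 81.7 CPM per kb in DN NK1.1+ and 93.6 CPM per kb in CD8 beta+ libraries. Lat also came before Grap2 in DN NK1.1+ libraries (17.55 and 16.97 CPM per kb), and Plcg1 before Vav1 in CD8 beta+ libraries (42.9 and 39.3 CPM per kb).

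The genes low in one group were not absent from it. In CD8 beta+ libraries Lat2, Plcg2, Clnk and Vav3 were at 9.32%, 11.1%, 12.0% and 37.8% of their DN NK1.1+ means. The sort gene Klrb1c was there at 5.81%, and Ncr1 at 0.177%. Of their CD8 beta+ means, Lat, Plcg1 and Grap2 kept 21.2%, 28.1% and 31.0% in DN NK1.1+ libraries, where Cd8b1 was at 0.271% and Themis at 2.39%. CD8 beta+ replicate 3 had the highest sum of NK and innate lymphoid markers in its group (662 CPM). Of this sum, Gzma gave 281 CPM, Eomes 171 CPM, Fcer1g 80.3 CPM, Xcl1 58.1 CPM, Klrb1c 41.8 CPM and Tyrobp 27.3 CPM. Ncr1, Klra8 and Klra4 gave 0.515, 0.824 and 0.824 CPM, so the sum is no measure of NK cells in that library. That library also had the highest Clnk and Vav3 of its group, but neither the highest Lat2 nor the highest Plcg2. The part of NK cells in these values was not tested.

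Markers of other cell types that are known to use some of these genes were summed. B cell markers, of which Cd22 was the highest, summed to 37.3, 24.7 and 15.8 CPM in DN NK1.1+ and 67.7, 80.3 and 30.6 CPM in CD8 beta+ libraries. The groups overlapped, and the sum was on average lower in DN NK1.1+ libraries. Mast cell and basophil markers summed to 24.7, 21.6 and 16.5 CPM in DN NK1.1+ and 0.520, 1.16 and 0.309 CPM in CD8 beta+ libraries. Most of this was the protease gene Cma1, at 12.6, 13.3 and 11.8 CPM in DN NK1.1+ libraries and 2 counts in all over CD8 beta+ libraries. Mcpt4 had 94 counts over DN NK1.1+ and 7 over CD8 beta+ libraries, and Cpa3 had 71 and 3. Tpsb2 had 54 and 2, Hdc 54 and 9, Gata2 21 and 0, and Mcpt8 5 and 0. Cma1 and Mcpt4, the 2 markers of this list that were tested, both passed as higher in DN NK1.1+ libraries. Ms4a2 and Fcer1a, for chains of the IgE receptor, had 2 and 1 counts over DN NK1.1+ and 0 over CD8 beta+ libraries. Myeloid markers summed to 463, 382 and 431 CPM in DN NK1.1+ and 183, 207 and 279 CPM in CD8 beta+ libraries, of which Itgax gave 258, 279.9 and 268 CPM in DN NK1.1+ and 102, 107 and 130.3 CPM in CD8 beta+ libraries. Itgax is also expressed by NK cells. Csf1r passed as higher too, at 38.7, 21.4 and 24.7 CPM in DN NK1.1+ and 12.7, 13.6 and 19.7 CPM in CD8 beta+ libraries (edgeR adjusted p = 0.026). The other 9 of the 11 myeloid markers tested did not pass, and the median log2 fold change of the 11 was 0.78. Luminal and milk genes summed to 210.4, 619.7 and 1387 CPM in DN NK1.1+ and 657, 422 and 567 CPM in CD8 beta+ libraries. The part of these cells in the members' values was not tested.

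Genes around the members were counted in 5 lists, with the edgeR test adjusted by Benjamini-Hochberg over all 13171 genes. Of 96 genes tested in them, 18 rose and 28 fell in DN NK1.1+ libraries, and 10 and 9 of these by at least 2-fold. Over all 13171 genes tested, 7.84% rose and 5.99% fell, and each list below is to be read beside these shares. Their median log2 fold change was −0.12, against −0.0033 over all genes tested.

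The receptor chains and kinases that feed the adaptors held opposed changes of large size. Of 16 tested, 6 rose and 6 fell. The signalling adaptors Tyrobp and Fcer1g, and Lyn, for a Src family kinase, had the largest changes. Tyrobp rose to 343 ± 37.5 CPM in DN NK1.1+ libraries, against 20.5 ± 6.57 CPM in CD8 beta+ libraries (adjusted p = 8.87e-06), and Fcer1g was at 818 ± 86.1 CPM in DN NK1.1+ and 64.4 ± 13.9 CPM in CD8 beta+ libraries (adjusted p = 2.29e-09). Lyn rose to 166 ± 15.6 CPM in DN NK1.1+ libraries, against 23.1 ± 2.73 CPM in CD8 beta+ libraries (adjusted p = 6.14e-10). Syk, the kinase that phosphorylates LAT2 in B cells and mast cells, rose by 2.72 on the log2 scale (SE 0.156, adjusted p = 1.13e-08). Zap70, for the kinase of LAT, was at 113 ± 9.69 CPM in DN NK1.1+ and 109 ± 10.8 CPM in CD8 beta+ libraries (adjusted p = 0.844). Txk and Tec, for kinases of the Tec family, rose with log2 fold changes of 1.12 (SE 0.122) and 1.26 (SE 0.151).

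Among 25 other receptor-proximal adaptors tested, 6 rose and 9 fell. Themis, for a T cell protein that binds GRB2, fell to 9.23 ± 5.01 CPM in DN NK1.1+ libraries, against 387 ± 4.49 CPM in CD8 beta+ libraries (log2 fold change −5.40, adjusted p = 0.00141). Sit1, for a membrane adaptor of T cells, fell to 1.1 ± 0.361 CPM in DN NK1.1+ libraries, against 12.9 ± 3.40 CPM in CD8 beta+ libraries (log2 fold change −3.55, adjusted p = 1.16e-05). Gab2, for a docking protein known to bind SHP2 and phosphoinositide kinase, rose to 13.2 ± 2.70 CPM in DN NK1.1+ libraries, against 2.38 ± 0.979 CPM in CD8 beta+ libraries (log2 fold change 2.47, adjusted p = 0.000173).

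Close relatives of the members moved in step with neither side as a whole. Grap, which resembles Grap2, fell to 22.5 ± 4.57 CPM in DN NK1.1+ libraries, against 57.6 ± 3.15 CPM in CD8 beta+ libraries (log2 fold change −1.35, adjusted p = 2.93e-05). Skap2, the relative of Skap1 known from myeloid cells, rose to 26.6 ± 3.36 CPM in DN NK1.1+ libraries, against 10.4 ± 0.908 CPM in CD8 beta+ libraries (log2 fold change 1.35, adjusted p = 0.000226). Grb2 was at 89.0 ± 2.12 CPM in DN NK1.1+ and 98.6 ± 8.53 CPM in CD8 beta+ libraries (adjusted p = 0.429). Blnk, the B cell relative of Lcp2 and Clnk, was near the floor in both, at 3.12 ± 0.416 CPM in DN NK1.1+ and 4.27 ± 0.940 CPM in CD8 beta+ libraries (adjusted p = 0.590). Vav2 was at 3.32 ± 1.19 CPM in DN NK1.1+ and 4.77 ± 1.80 CPM in CD8 beta+ libraries (adjusted p = 0.572).

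Of 7 other phospholipase C genes tested, 2 rose and 0 fell by edgeR. With an unadjusted p under 0.05, 1 fell (Plcb2, adjusted p = 0.0543), and DESeq2 and limma-voom called 0 lower. Without CD8 beta+ replicate 3, edgeR called 1 lower. Plce1, for a phospholipase C regulated by Ras, rose to 18.5 ± 3.25 CPM in DN NK1.1+ libraries, against 4.87 ± 0.975 CPM in CD8 beta+ libraries (adjusted p = 0.000106). Plcb4, for a beta-class enzyme coupled to G proteins, had 184 counts over DN NK1.1+ and 1 count over CD8 beta+ libraries. The ratio on scaled library sizes was 157, with an exact 95% interval of 27.8 to 6218 that covers counting error only. The 1 count came from replicate 2 of the CD8 beta+ libraries. With that replicate left out, the remaining CD8 beta+ libraries had 0 counts. Setting a chosen floor of 3 counts for them gave a ratio of 29.1, which depends on that choice.

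**Figure D4:**
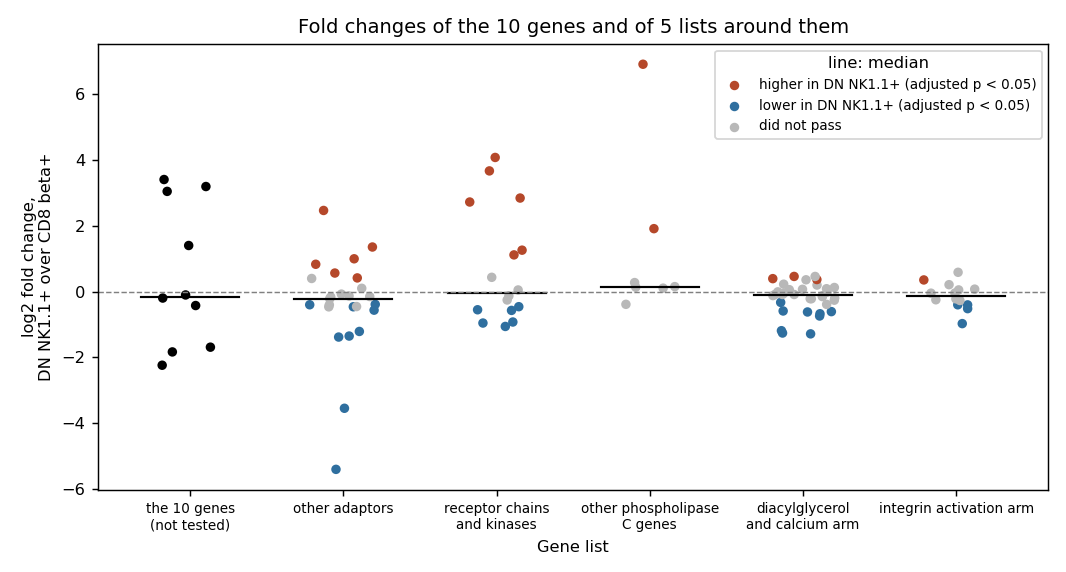
Log2 fold change of DN NK1.1+ over CD8 beta+ libraries for the 10 genes and for 5 lists of genes around them. The 10 genes are black and labelled not tested, since they were chosen on this contrast and their calls are not used as a test. Points are genes, coloured in the lists by the edgeR call at an adjusted p of 0.05, and lines are medians. The members spread from −2.24 to 3.41, and the 5 lists have medians from −0.21 to 0.15; the top point is Plcb4, which rests on 1 count in CD8 beta+ libraries.

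Downstream of phospholipase C, the diacylglycerol and calcium arm had more genes that fell than rose. Of 34 tested, 3 rose and 9 fell (1 rose without CD8 beta+ replicate 2). The shares over all genes tested were 7.84% raised and 5.99% fallen. Orai2, for a subunit of calcium channels, fell to 28.4 ± 2.36 CPM in DN NK1.1+ libraries, against 69.3 ± 6.0 CPM in CD8 beta+ libraries (adjusted p = 7.93e-06). Rasgrp2, for an activator of the integrin regulator Rap, fell to 30.5 ± 2.69 CPM in DN NK1.1+ libraries, against 73.1 ± 10.9 CPM in CD8 beta+ libraries (adjusted p = 1.59e-05). Dgka, for a kinase that removes diacylglycerol, fell to 102 ± 14.5 CPM in DN NK1.1+ libraries, against 232 ± 39.7 CPM in CD8 beta+ libraries (adjusted p = 5.23e-05). Of the inositol trisphosphate receptor genes, Itpr1 fell (log2 fold change −0.62, SE 0.135) and Itpr3 rose (0.46, SE 0.104). Itpr2 was at 283 ± 28.3 CPM in DN NK1.1+ and 301 ± 26.5 CPM in CD8 beta+ libraries (adjusted p = 0.676).

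Of 14 genes of the integrin activation arm, into which SKAP1 feeds, 1 rose and 4 fell (7.84% and 5.99% over all genes tested). Prkd2, for a kinase activated by diacylglycerol, fell to 65.6 ± 5.09 CPM in DN NK1.1+ libraries, against 129 ± 20.7 CPM in CD8 beta+ libraries (adjusted p = 6.72e-05). Rassf5, whose product carries active Rap to integrins, fell to 217 ± 8.05 CPM in DN NK1.1+ libraries, against 288 ± 13.1 CPM in CD8 beta+ libraries (adjusted p = 0.00621). Itgb1 fell to 648 ± 19.5 CPM in DN NK1.1+ libraries, against 928 ± 214 CPM in CD8 beta+ libraries (adjusted p = 0.0203). It no longer passed when a DN NK1.1+ library was left out (adjusted p = 0.0732, 0.0674 and 0.115 without replicates 1, 2 and 3). Tln1, for talin, was the gene that rose (log2 fold change 0.35, adjusted p = 0.0222). Fyb, for the partner of SKAP1, fell by 0.56 on the log2 scale (adjusted p = 0.00179). The list held 0 raised genes without DN NK1.1+ replicate 1, CD8 beta+ replicate 1 or CD8 beta+ replicate 2, and 2 without CD8 beta+ replicate 3. It held 2 fallen genes without DN NK1.1+ replicate 1 or 3.

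The genes with the profile most like the raised members over the 6 libraries were found by Pearson correlation of log2 CPM. The points share their group, so that many genes reach high values: between 33 and 96 genes per member had r above 0.99. For Lat2 the 3 closest were Klrd1, Spry2 and Klrb1c, and for Plcg2 they were Btf3l4, Klri2 and Ncr1. For Clnk they were Fam184a, Cwc25 and Pik3cb, and for Vav3 they were Cntln, Serpinb6b and Tex2. Klrd1, Klri2 and Ncr1 encode NK receptors or receptor chains.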

How the data were processed

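Bulk RNA sequencing of 3 DN NK1.1+ and 3 CD8 beta+ libraries was used. The authors deposited 1 table of values per gene, which were treated as estimated counts, a unit inferred from the values since not all are whole. The submitters' processing notes list the build mm10 and Cell Ranger 7.1.0, a single-cell tool. For aligner, counter, annotation, strand and duplicate removal the sources used here state nothing. The headings of the symbol and ID columns are swapped in the table. All 55450 IDs matched GENCODE M21, which gave coordinates and exon lengths.

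The expected counts were rounded and tested with edgeR 4.0.16 (R 4.3.3; robust quasi-likelihood fit, group only, TMM, two-sided, Benjamini-Hochberg over 13171 genes, minimum count 10, minimum total 15, threshold 0.05). The SE was derived from the F statistic. The fit was also run on simulated counts, which held no batch or mixture of cells, and no result here rests on that run. Libraries held 7961360 to 14367299 counts, and depth limits genes near the floor. CPM per kb used merged exons.

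Members, lists and alternatives were chosen with earlier results of these data known. The text names all members, the sort genes Cd8b1 and Klrb1c, the relatives Blnk, Vav2, Grap, Grb2 and Skap2, from each of 5 pathway lists the 3 called genes that changed most and averaged 5 CPM or more in the higher group, and the 3 genes most like Lat2, Plcg2, Clnk and Vav3. Other list genes were chosen after their values were seen. A further list and some genes are not reported here. There were 9 lists of cell type markers. Basal markers summed to 8.79, 17.0 and 167 CPM in DN NK1.1+ and 15.6, 11.9 and 119 CPM in CD8 beta+ libraries, and fibroblast markers to 21.0, 0.754 and 103 CPM in DN NK1.1+ and 21.1, 5.85 and 81.8 CPM in CD8 beta+ libraries, so that replicate 3 was highest in both groups. Endothelial markers summed to 48.3 to 76.9 CPM in DN NK1.1+ and 34.8 to 38.8 CPM in CD8 beta+ libraries. Most of this was Pecam1, which averaged 58.9 CPM in DN NK1.1+ and 31.8 CPM in CD8 beta+ libraries. Cdh5, Kdr and Emcn overlapped between the groups. Chi-square per degree of freedom between libraries of a group was 9.07 to 23.5, above sampling noise. Alternatives were RLE, upper quartile and no scaling, DESeq2 1.42.0, limma-voom (limma 3.58.1), other filters, unrounded counts, a replicate block and leaving out each library.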

Additional observations from a re-analysis of the deposited data

How the results depend on the processing

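The fold changes of the 10 members and the 4 shifts of pair ratios kept their direction under every alternative run. Leaving out single libraries, the shift ranged from 5.50 to 5.75 for Lat2/Lat, 4.93 to 5.18 for Plcg2/Plcg1, 3.30 to 3.62 for Clnk/Lcp2 and 1.34 to 1.66 for Vav3/Vav1 (log2). The count of raised genes over all tested ranged from 681 to 1093 without single libraries, and that of fallen genes from 499 to 883. For lists, the same ranges were 0 to 2 raised and 2 to 5 fallen in the integrin arm, 1 to 3 raised in the diacylglycerol and calcium arm and 0 to 1 fallen among other phospholipase C genes. Raised genes of the integrin arm numbered 2 with no filter or the replicate block, against 1. Other phospholipase C genes held 1 fallen gene with upper quartile scaling, no filter, a minimum count of 30 or the replicate block, against 0. Besides the left-out libraries given in the text, the call of Itgb1 ended with library size only (adjusted p = 0.0631). The cause of these moves was not tested. The libraries were not treated as paired, since the labels name no shared source and not every same-numbered pair correlated above 0.1: correlations of deviations from group means were −0.05, 0.19 and 0.26 for numbers 1, 2 and 3. Libraries numbered 2 and 3 correlated best with their own number, which with the shared high basal and fibroblast markers of replicate 3 is a hint from the data, not the design; those numbered 1 did not. With the block, 1137 genes rose and 945 fell over all genes. By construction, neither the block nor scaling between libraries can move the pair shifts. Depth limits Blnk, Vav2 and the phospholipase C genes near the floor.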
